A study of Mus musculus with 16 samples.

Results

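The VEGF and angiopoietin system was followed through 10 genes, which were selected by name. They are 5 ligands (Vegfa, Vegfb, Vegfc, Angpt1 and Angpt2) and 5 receptors or co-receptors (Kdr, Flt1, Nrp1, Tek and Tie1), out of 24421 gene names listed. All 10 passed the filter on low values, which asked for a mean of 0.1 TPM or more, and were among the 17317 genes tested. TPM (the share of all transcripts, on a fixed total) is a level corrected for transcript length and library size, so that levels of different genes can be set side by side. RNA was sequenced from the dentate gyrus of male C57BL/6 mice aged 1 year, with the p16Ink4a gene intact (p16Ink4a +/+, named p16 WT) or deleted in every cell (p16Ink4a -/-, named p16 KO). The mice either stayed sedentary (CTL) or had a running wheel for 12 days (RUN). The groups, named p16 KO RUN, p16 WT RUN, p16 KO CTL and p16 WT CTL, held 4 libraries each, and every library pooled the tissue of 2 mice. The knockout allele was made in FVB mice and bred onto C57BL/6, and it leaves p19Arf, the other product of the Cdkn2a locus, functional.

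VEGF-A is the main growth signal for blood vessels. It acts through VEGFR2 (Kdr) on endothelial cells, whereas VEGFR1 (Flt1) binds it tightly and holds its action back, and neuropilin-1 (Nrp1) is a co-receptor that neurons also use for semaphorins. Angiopoietin-1 activates the endothelial receptor Tie2 (Tek) and keeps vessels quiescent, angiopoietin-2 competes with it and loosens the vessel wall so that vessels can be remodelled, and Tie1 is the partner receptor of Tie2. In the dentate gyrus the vessels border the niche of neural stem cells, and VEGF has been linked to the neurogenic response to running.

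Several features of the libraries bear on these genes. Cdkn2a, the targeted gene, lay between 0 and 0.586 TPM in p16 WT CTL and between 0 and 0.344 TPM in p16 KO CTL, too low in every group to check the genotype labels. The 3 sedentary libraries p16 WT CTL replicate 2 and p16 KO CTL replicates 6 and 7 stood apart: the 9 nuclear long noncoding RNAs examined (Malat1, Meg3 and others) summed to 486 to 985 TPM in them and to 1841 to 2545 TPM in the other 13, and 20 endothelial marker genes, of which 19 were measured and none was at 0 in any library, summed to 171 to 213 TPM against 267 to 347 TPM. Coverage relative to the mean library was 0.621 to 0.893 in the 8 running libraries and 0.900 to 1.95 in the 8 sedentary ones, so that depth moved with running, and its part in the results was not tested. The markers of dentate granule neurons, 10 genes, summed to 746 to 1949 TPM. The lowest sum was that of p16 KO CTL replicate 8, a library outside the 3. That library also had the highest sums of the CA1 and CA3 pyramidal neuron markers (1253 TPM) and of the oligodendrocyte markers (2586 TPM). The 3 libraries that stood apart were higher in the summed markers of astrocytes (4145 to 4851 against 3275 to 4012 TPM) and of microglia (587 to 701 against 454 to 549 TPM), with no marker of either list at 0. In such bulk tissue, fewer cells of a type and less RNA per cell cannot be told apart.

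The levels of the 10 genes spanned about 2 orders of magnitude. Over the 16 libraries Nrp1 was the most abundant, at 90.2 ± 10.4 TPM (SD, n = 16), followed by Vegfb at 83.9 ± 8.34 TPM and Vegfa at 40.3 ± 8.31 TPM. Nrp1 and Vegfb overlapped in their ranges and Nrp1 was the higher one in 11 of 16 libraries, while Vegfb was above Vegfa and Vegfa above Flt1 with no overlap. Among the tyrosine kinase receptors, Flt1 was at 16.3 ± 3.67 TPM, Kdr at 7.21 ± 1.66 TPM, Tek at 4.46 ± 1.25 TPM and Tie1 at 3.48 ± 0.992 TPM. The ranges of these neighbours overlapped, but Flt1 was above Kdr and Kdr above Tek in all 16 libraries. The remaining ligands were low, with Vegfc at 3.57 ± 0.980 TPM, Angpt1 at 2.96 ± 0.492 TPM and Angpt2 at 0.961 ± 0.585 TPM, and Angpt1 exceeded Angpt2 in every library. Among Tek, Vegfc, Tie1 and Angpt1, neighbours in this order were not separated beyond their spread.

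**Figure D1:**
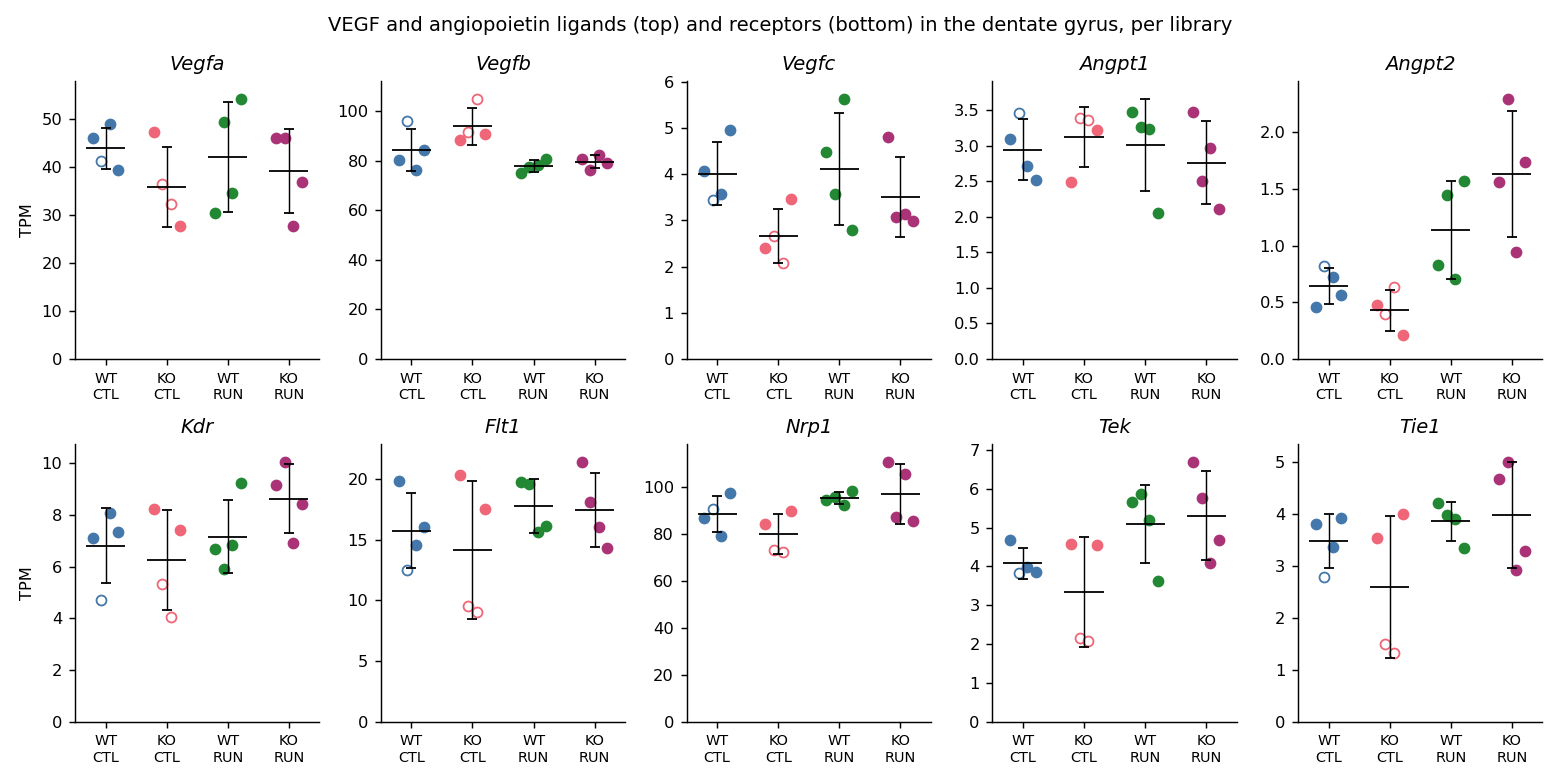
TPM of the 5 ligands (upper row) and 5 receptors (lower row) in each library, by group (WT and KO stand for p16 WT and p16 KO). Each point is a library of 2 pooled mice, the bar is the mean and the whiskers are the SD of 4 libraries, and open points are the 3 sedentary libraries that stood apart; Angpt2 is highest in p16 KO RUN (0.945 to 2.29 TPM), and Tie1, Flt1 and Kdr are lowest at the open points.

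Angpt2 (chromosome 8 of mm10, 18690263 to 18741562, minus strand) was the gene of the system that differed most with running. It was at 1.56, 2.29, 0.945 and 1.74 TPM in p16 KO RUN and at 0.479, 0.394, 0.639 and 0.210 TPM in p16 KO CTL. The p16 WT RUN libraries were at 0.828, 1.44, 0.703 and 1.57 TPM and the p16 WT CTL libraries at 0.462, 0.821, 0.720 and 0.566 TPM. Every p16 KO RUN library was thus above every sedentary library of either genotype, whereas p16 WT RUN replicates 9 and 11 lay near the highest p16 WT CTL library. These low levels rested on a coverage of 0.583 to 5.43 reads per base, the thinnest of the 10 genes.

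Running was compared with the sedentary state within the knockout (Set A) and within the wild type (Set C), the knockout was compared with the wild type within sedentary mice (Set B) and within running mice (Set E), and Set D set running knockouts against sedentary wild types. These sets share libraries, so that their values are not independent of each other. They were tested with limma on log2(TPM + 0.1), and a gene was called at an unadjusted p under 0.05, the threshold used for these sets in the study, with the Benjamini-Hochberg adjusted p over all genes given beside it. Angpt2 rose in Set A by a log2 fold change of 1.66 (standard error 0.36, 95% interval 0.86 to 2.47, 3.16-fold), with a limma p of 0.00115 and an adjusted p of 0.130. The 8 libraries of Set A did not overlap, a pattern that 5.83% of all genes showed in the higher direction, and the exact permutation p was 0.0286, the smallest that 4 against 4 libraries can give. The unadjusted p stayed under 0.05 in each of the 8 fits without 1 library, with values of 1.42 to 1.88 and adjusted p of 0.0688 to 0.318. At these low levels the size of the fold change depended on the pseudocount: with 1 TPM in place of 0.1 TPM it was 0.84 in Set A, 0.66 in Set D and 0.60 for running, each still past the unadjusted threshold.

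In p16 WT mice the Angpt2 difference (Set C) was 0.68 (standard error 0.32, 95% interval -0.04 to 1.40, limma p = 0.0623, adjusted p = 0.985, exact permutation p = 0.143), which did not reach the threshold. It passed without p16 WT CTL replicate 2 (0.81) and without p16 WT RUN replicate 11 (0.87). The difference between the running effects of the 2 genotypes, tested as an interaction, was 0.98 (95% interval -0.05 to 2.02, limma adjusted p = 0.797), did not reach the unadjusted threshold and so was not shown. Over all 16 libraries, with the running effect averaged over both genotypes, Angpt2 rose by 1.17 on the log2 scale (standard error 0.24, limma adjusted p = 0.0422, exact permutation p = 0.00204). It was the one gene of the 10 with an adjusted p under 0.05, which 130 genes (0.751% of those tested) had, and the adjusted p ran from 0.0322 to 0.102 when 1 library was left out.

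The endothelial markers summed to 267 to 347 TPM in p16 KO RUN and to 171 to 277 TPM in p16 KO CTL, so that they moved in the same direction as Angpt2. Without the 3 libraries that stood apart, the Angpt2 fold change was 1.96 in Set A (limma adjusted p = 0.421), 1.32 in Set D (adjusted p = 0.248) and 1.39 for running (adjusted p = 0.129), each larger than with all libraries and each past the unadjusted threshold. Set A then held 6 libraries, with only replicates 5 and 8 left in p16 KO CTL. Replicate 8 had the lowest Angpt2 level of all libraries, 0.210 TPM at a coverage of 0.583 reads per base. Without replicate 8 alone the Set A value was lower, at 1.42, and the part of the endothelial content in the Angpt2 values was not tested. In Set D, which compares running knockouts with sedentary wild types, the Angpt2 fold change was 1.18 with all libraries (standard error 0.30, limma p = 0.00329, adjusted p = 0.296, exact permutation p = 0.0286), again with no overlap, seen in 3.27% of all genes. In Set E, between the running groups of both genotypes, the value was 0.50 (95% interval -0.26 to 1.27, limma p = 0.171, adjusted p = 1, exact permutation p = 0.200), and it ranged from 0.31 (without p16 WT RUN replicate 11) to 0.72 (without p16 KO RUN replicate 15) with 1 library left out.

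Angpt1 (chromosome 15, 42424667 to 42676977, minus strand), the activating ligand of Tie2, was at 3.47, 2.51, 2.96 and 2.11 TPM in p16 KO RUN and at 2.49, 3.40, 3.36 and 3.23 TPM in p16 KO CTL. These ranges overlapped, and the Set A value was -0.25 on the log2 scale (95% interval -0.70 to 0.21, limma p = 0.252, adjusted p = 0.512, exact permutation p = 0.257). It was at 3.10, 3.47, 2.71 and 2.51 TPM in p16 WT CTL and at 3.48, 3.26, 3.24 and 2.06 TPM in p16 WT RUN, and no comparison called it.

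Since both angiopoietins compete for Tie2, the ratio of Angpt2 to Angpt1 was computed in each library, with 0.1 TPM added to both. The mean ratio was 0.639 ± 0.280 (SD, n = 4) in p16 KO RUN and 0.168 ± 0.0618 in p16 KO CTL, and it was 0.434 ± 0.249 in p16 WT RUN and 0.245 ± 0.0491 in p16 WT CTL. In p16 KO RUN it was 0.464, 0.918, 0.341 and 0.833, and in p16 KO CTL 0.223, 0.141, 0.214 and 0.0932. The ratio was higher in all 4 running than in all 4 sedentary knockout libraries, by 1.90 on the log2 scale (3.73-fold, exact permutation p = 0.0286). In p16 WT mice the difference of 0.68 was within the spread of the libraries (exact permutation p = 0.229), since p16 WT RUN replicates 9 and 11 were at 0.260 and 0.240, and it was 0.34 without p16 WT RUN replicate 12. The exact p stayed under 0.05 in 7 of 8 fits without 1 library in Set A, the exception being p16 KO CTL replicate 8 (1.64). The Set D difference was 1.29 (exact permutation p = 0.0286), and its exact p was 0.0571 when any p16 WT CTL library was left out, with values of 1.14 to 1.38. Those of Set B (-0.61, exact permutation p = 0.143) and Set E (0.61, exact permutation p = 0.257) did not exceed the spread.

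**Figure D2:**
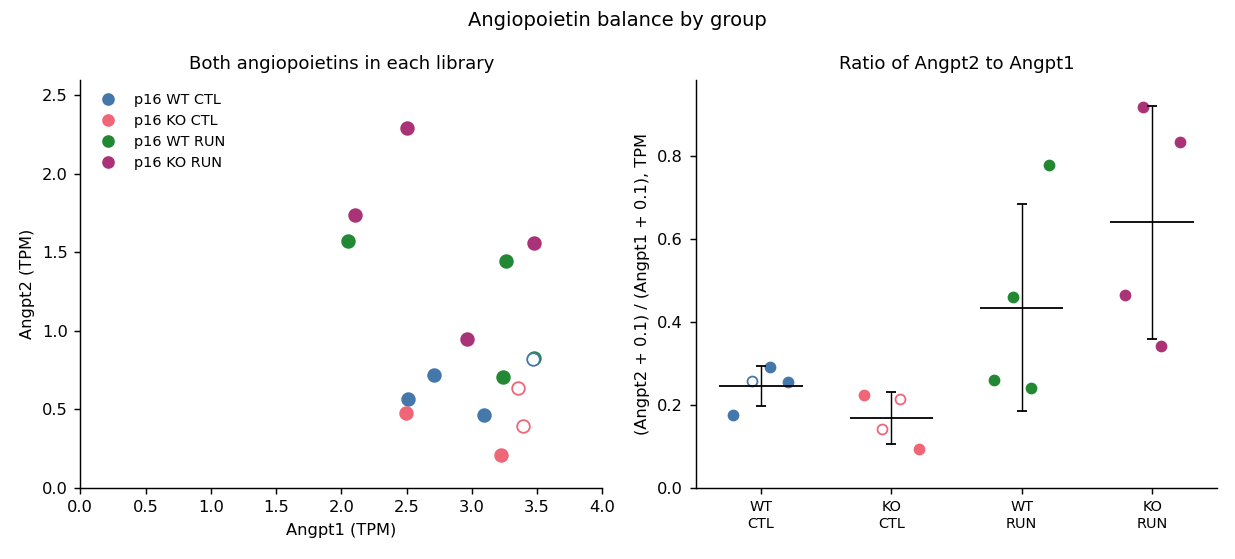
Left, Angpt2 against Angpt1 in TPM, a point for each of the 16 libraries. Right, the ratio of Angpt2 to Angpt1 (0.1 TPM added to both) by group, with the mean (bar) and SD (whiskers) of 4 libraries and open points for the 3 sedentary libraries that stood apart; the p16 KO RUN ratios, 0.341 to 0.918, lie above all sedentary ones, which reach 0.292.

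Vegfb (chromosome 19, 6982472 to 6987651, minus strand) encodes VEGF-B, a ligand of VEGFR1 that is linked more to metabolism and survival of vessels than to sprouting. It was at 88.4, 91.7, 105 and 90.8 TPM in p16 KO CTL and at 80.9, 76.1, 82.2 and 79.0 TPM in p16 KO RUN. All 4 running knockout libraries were below all 4 sedentary ones, which 4.55% of all genes showed in the lower direction. In Set A Vegfb fell by 0.30 on the log2 scale (standard error 0.08, limma p = 0.00402, adjusted p = 0.165, exact permutation p = 0.0286), and it fell in all 8 fits without 1 library.

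The p16 WT RUN libraries were at 74.9, 77.4, 78.4 and 80.9 TPM and the p16 WT CTL libraries at 80.4, 96.0, 76.4 and 84.4 TPM. The groups overlapped, and Set C gave -0.12 (95% interval -0.32 to 0.08, limma p = 0.202, adjusted p = 0.985, exact permutation p = 0.257). Without p16 WT CTL replicate 2 the Set C value was -0.03, and without replicate 3 it was -0.18. No fit without 1 library passed the unadjusted threshold. Over both genotypes Vegfb fell by 0.21 with running (standard error 0.06, limma p = 0.00343, adjusted p = 0.110, exact permutation p = 0.00408), and the interaction was -0.18 (95% interval -0.44 to 0.08, adjusted p = 0.797). The interaction passed the unadjusted threshold in 1 of 16 fits without 1 library. Its values lay between -0.27 (without p16 WT CTL replicate 2) and -0.11 (without p16 KO CTL replicate 7). Vegfb was at 91.7 to 105 TPM in the 3 libraries that stood apart and at 74.9 to 90.8 TPM in the other 13. Without those 3 it still fell, by 0.19 in Set A (limma adjusted p = 0.491) and by 0.11 for running, both past the unadjusted threshold and smaller than with all libraries by more than 1.5 times. Glial markers moved in the same direction as Vegfb in Set A: 5 of 8 oligodendrocyte, 3 of 8 microglia and 3 of 10 astrocyte markers fell and none rose, beside 7.74% of all genes lower, with medians of -0.40, -0.29 and -0.27. With the 3 libraries left out, 3, 0 and 1 of them fell, beside 3.59% of all genes. Choroid plexus markers summed to 220 TPM in p16 KO CTL replicate 7, the library with the highest Vegfb level. They summed to 19.0 to 66.9 TPM in all other libraries. Without that replicate the Vegfb value in Set A was -0.23. The part of the glial and choroid plexus content in the Vegfb values was not tested.

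Vegfc (chromosome 8, 54077532 to 54186454, plus strand) encodes VEGF-C, the ligand of VEGFR3 (Flt4) and of VEGFR2. It was at 2.41, 2.67, 2.09 and 3.47 TPM in p16 KO CTL and at 4.06, 3.45, 3.57 and 4.95 TPM in p16 WT CTL. The highest knockout library, replicate 8, reached into the wild-type range. Vegfc fell by 0.52 in Set B on the log2 scale (standard error 0.19, limma p = 0.0208, adjusted p = 0.625, exact permutation p = 0.0571), and it was the 1 member of 10 called there, where 6.69% of all genes were called (3.54% lower). The call was lost without p16 WT CTL replicate 4 (-0.43), without p16 KO CTL replicate 5 (-0.46), without p16 KO CTL replicate 7 (-0.44) and without the 3 libraries that stood apart (-0.47). The endothelial markers moved in the same direction in Set B: their median was -0.22, beside -0.01 over all genes, with 1 of 19 above 0 and none called. Without the 3 libraries that stood apart their median was 0.05. The part of the endothelial content in the Vegfc value was not tested.

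In the running groups Vegfc was at 4.80, 3.07, 3.14 and 2.99 TPM in p16 KO RUN and at 4.48, 3.56, 5.62 and 2.80 TPM in p16 WT RUN. Averaged over both treatments, Vegfc fell with the knockout by 0.36 (standard error 0.15, limma p = 0.0290, adjusted p = 0.674, exact permutation p = 0.0359), again the 1 member called, against 7.12% of all genes (3.25% lower), and the unadjusted p stayed under 0.05 in 8 of the 16 fits without 1 library. Vegfc lost this call when the 3 libraries that stood apart were left out (-0.34), and Vegfb, higher by 0.12 with the knockout, was then the member called instead. Set A gave 0.32 (95% interval -0.15 to 0.79, limma p = 0.160, adjusted p = 0.415, exact permutation p = 0.200).

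Vegfa (chromosome 17, 46016993 to 46032377, minus strand), the main ligand of VEGFR2, was at 47.3, 36.4, 32.4 and 27.8 TPM in p16 KO CTL and at 46.1, 46.2, 27.8 and 36.9 TPM in p16 KO RUN. It was at 46.0, 41.3, 49.0 and 39.5 TPM in p16 WT CTL and at 30.4, 49.5, 34.7 and 54.2 TPM in p16 WT RUN. All 4 groups overlapped. The Set A value was 0.06 (95% interval -0.37 to 0.49, limma p = 0.765, adjusted p = 0.882, exact permutation p = 0.857), a wide interval that leaves room for differences in both directions. Set B gave -0.25 (95% interval -0.57 to 0.07, limma p = 0.110, adjusted p = 0.625, exact permutation p = 0.200), and Vegfa was not called in any comparison with all libraries. The Set B value passed the unadjusted threshold without p16 KO CTL replicate 5 (-0.37) and was -0.13 without replicate 8.

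**Figure D3:**
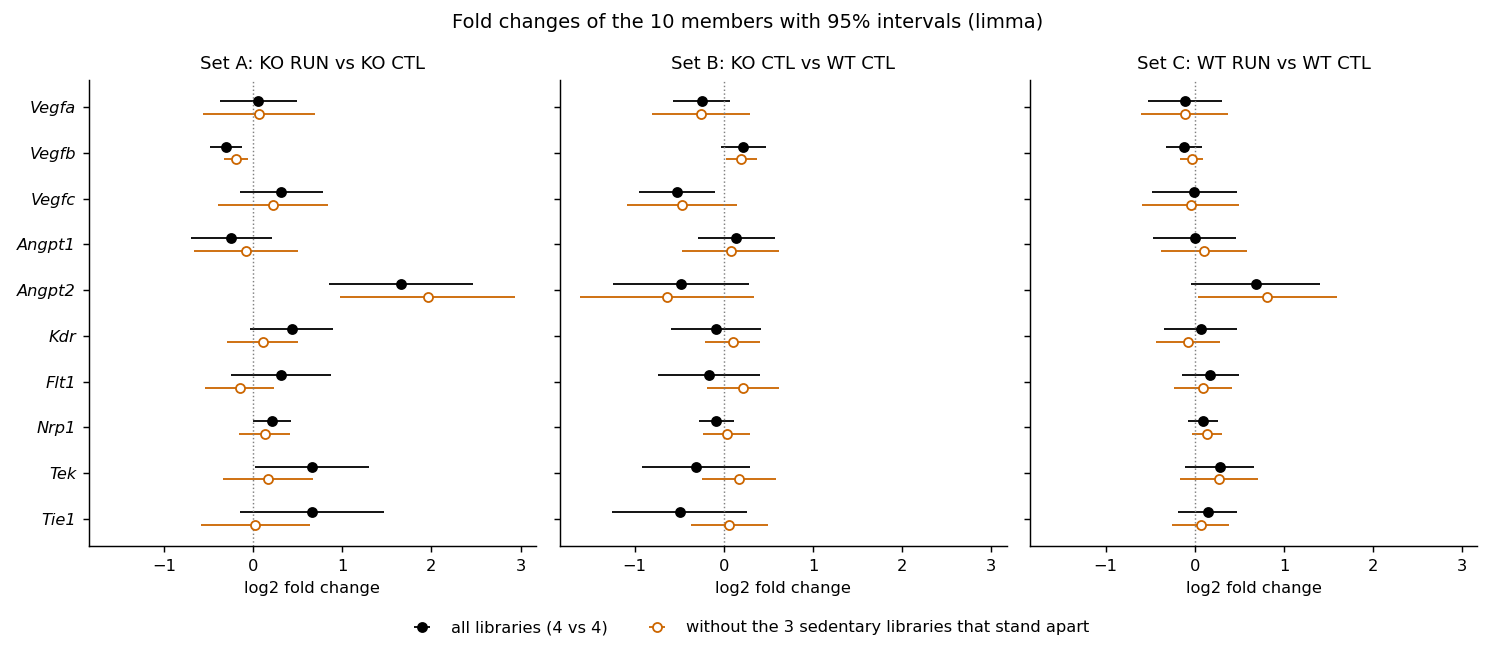
Log2 fold changes of the 10 members in Sets A, B and C with 95% intervals from limma, with all libraries (filled) and without the 3 sedentary libraries that stood apart (open). Angpt2 in Set A is at 1.66 with all libraries and at 1.96 without the 3, whereas Tek, Tie1, Flt1 and Kdr are at 0.31 to 0.66 with all libraries and at -0.15 to 0.17 without them.

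The receptors Tek, Tie1 and Flt1 followed one another across the libraries, and Kdr did so less closely. Pearson's r over the 16 libraries, on the log2 scale, was 0.929 between Tek and Tie1, 0.892 between Flt1 and Tie1, and 0.885 between Flt1 and Tek. For Kdr it was 0.698 with Tie1, 0.612 with Flt1 and 0.558 with Tek. These values are a description, since the libraries share their depth and their content of vessels. Without the 3 libraries that stood apart, r was 0.760 between Tek and Tie1, 0.664 between Flt1 and Tek and 0.606 between Flt1 and Tie1 over 13 libraries. Kdr was then at 0.253 with Tie1, -0.01 with Flt1 and -0.00049 with Tek, so that its relation to the other receptors rested on the 3 libraries. The endothelial markers, which do not include these receptors, ran along with them over the 16 libraries, with r of 0.948 for Tie1, 0.916 for Tek, 0.900 for Flt1 and 0.702 for Kdr. For Vegfc r was 0.584, for Angpt2 0.349, for Vegfa 0.075 and for Vegfb -0.806. Over the 13 libraries r with the markers was 0.819 for Tie1, 0.804 for Tek, 0.613 for Flt1, 0.521 for Vegfc and 0.319 for Angpt2. It was 0.128 for Kdr and -0.236 for Vegfb, whose relations to the markers thus rested on the 3 libraries. For Angpt1 r with the markers changed sign, from -0.297 over the 16 libraries to 0.540 over the 13. For Nrp1 it was 0.591 and 0.513. With the mean of the nuclear long noncoding RNAs, r over the 16 libraries was 0.859 for Tie1, 0.803 for Flt1, 0.753 for Tek, 0.738 for Kdr and -0.814 for Vegfb. The median log2 fold change of these RNAs in Set A was 0.99 with all libraries and -0.11 without the 3. Without the 3, 1 of the 9 was still higher and 1 lower at the unadjusted threshold, beside 4.90% and 3.59% of all genes. These were Malat1 (0.59, limma adjusted p = 0.325) and Neat1 (-0.23, adjusted p = 0.544).

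**Figure D4:**
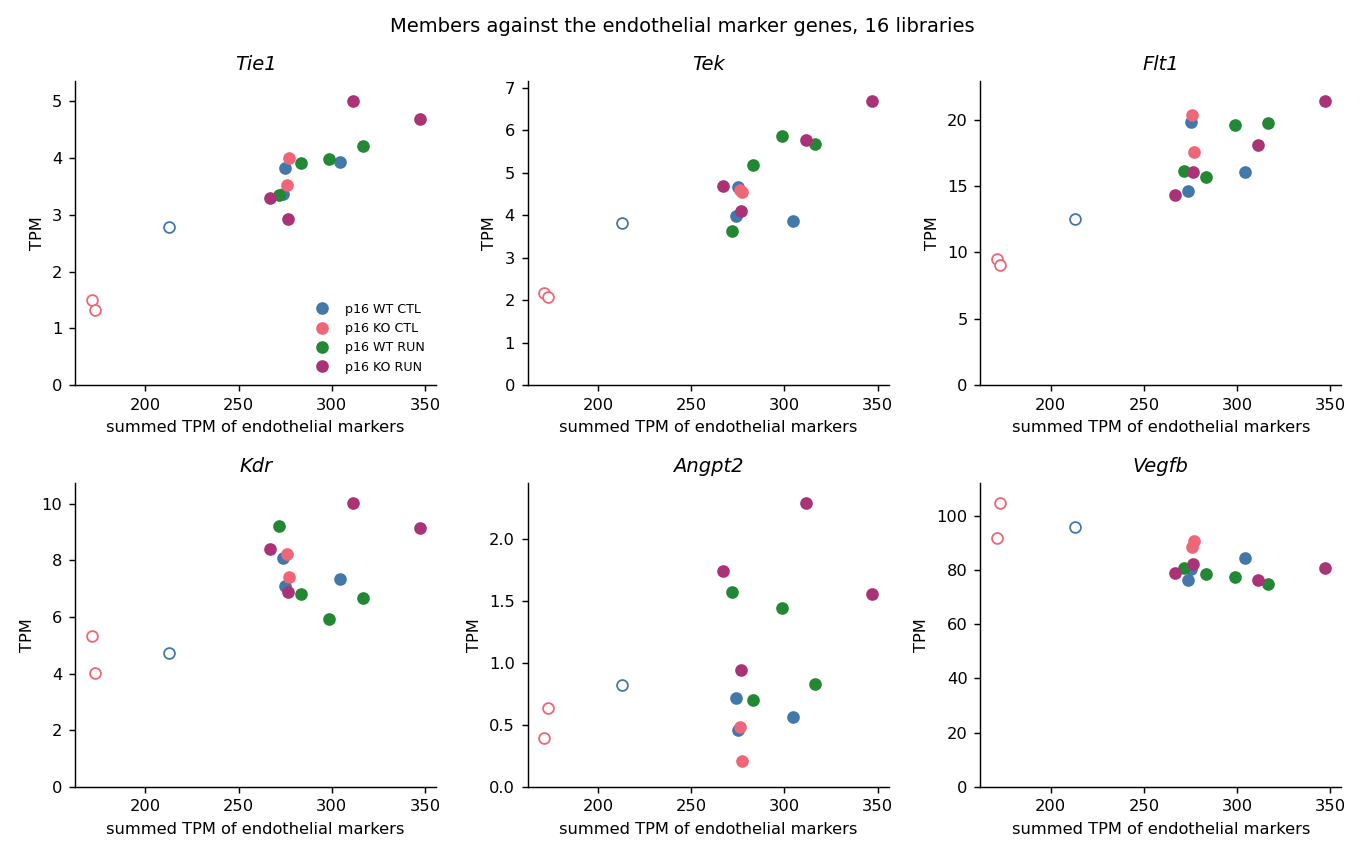
TPM of 6 members against the summed TPM of the endothelial marker genes in the 16 libraries, coloured by group, with open points for the 3 sedentary libraries that stood apart. Tie1, Tek and Flt1 follow the marker sum, which is 171 to 213 TPM at the open points and 267 to 347 TPM elsewhere, while Angpt2 spans 0.210 to 2.29 TPM with little relation to it.

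For the 3 receptor genes that varied together (Tek, Tie1 and Flt1), and for Kdr beside them, the 250 bases before the start are shown, from RefSeq on GRCm38.p6 (the assembly of mm10), read in the direction of the gene. They were taken from chr4:94739039-94739288 (Tek, plus strand), chr4:118489850-118490099 (Tie1, minus strand), chr5:147726012-147726261 (Flt1, minus strand) and chr5:75978456-75978705 (Kdr, minus strand). Capitals mark GGAA and its reverse complement TTCC, the core bound by ETS factors, a family that is active in endothelial cells.
Tek: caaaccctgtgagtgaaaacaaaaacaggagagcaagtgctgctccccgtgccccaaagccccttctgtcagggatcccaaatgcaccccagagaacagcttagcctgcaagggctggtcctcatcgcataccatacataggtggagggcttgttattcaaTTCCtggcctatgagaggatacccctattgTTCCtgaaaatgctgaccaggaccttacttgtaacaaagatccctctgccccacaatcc
Tie1: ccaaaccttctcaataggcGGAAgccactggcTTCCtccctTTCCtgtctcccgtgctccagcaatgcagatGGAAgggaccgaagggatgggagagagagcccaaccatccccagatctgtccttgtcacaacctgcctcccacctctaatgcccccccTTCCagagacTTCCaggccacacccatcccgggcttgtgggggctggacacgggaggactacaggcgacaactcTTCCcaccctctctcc
Flt1: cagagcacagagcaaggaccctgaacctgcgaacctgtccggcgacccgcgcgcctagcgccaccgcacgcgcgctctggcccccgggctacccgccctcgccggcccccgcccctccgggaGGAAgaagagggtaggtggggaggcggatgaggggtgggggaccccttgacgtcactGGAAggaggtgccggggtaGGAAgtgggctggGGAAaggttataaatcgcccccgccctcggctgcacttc
Kdr: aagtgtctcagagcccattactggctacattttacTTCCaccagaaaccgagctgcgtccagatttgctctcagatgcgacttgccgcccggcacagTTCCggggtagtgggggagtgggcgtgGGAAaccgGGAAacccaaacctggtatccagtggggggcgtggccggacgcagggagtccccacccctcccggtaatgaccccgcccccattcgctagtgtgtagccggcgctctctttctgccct
The core occurred 2 times before Tek, 7 times before Tie1 and 4 times each before Flt1 and Kdr, counted on both strands. Of 32851 windows of the same length, 93.4% held at least 1 such core, 33.4% at least 4 and 3.82% at least 7, with a median of 3. The letters are a description of these windows and not of bound sites.

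Tek (chromosome 4, 94739289 to 94874976, plus strand), which encodes Tie2, was at 6.69, 5.76, 4.10 and 4.68 TPM in p16 KO RUN and at 4.59, 2.16, 2.08 and 4.55 TPM in p16 KO CTL. The 2 low sedentary values are replicates 6 and 7, and the other 2 sedentary libraries lay within the running range. Tek rose in Set A by 0.66 (standard error 0.28, 95% interval 0.02 to 1.30, limma p = 0.0450, adjusted p = 0.264, exact permutation p = 0.143). The call was lost in 5 of 8 fits without 1 library (p16 KO CTL replicate 6 or 7, 0.50 and 0.49, and p16 KO RUN replicate 13, 14 or 16, 0.55, 0.60 and 0.72). Without both of replicates 6 and 7 the value was 0.17 (95% interval -0.34 to 0.67). The call was also lost with quantile normalization (0.52), without the filter on low values and without the variance trend.

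In p16 WT mice Tek was at 5.67, 5.86, 5.19 and 3.63 TPM in p16 WT RUN and at 4.67, 3.82, 3.98 and 3.87 TPM in p16 WT CTL. Replicates 9 to 11 of p16 WT RUN were above every sedentary wild-type library and replicate 12 below all of them. Set C gave 0.28 (95% interval -0.11 to 0.66, limma p = 0.135, adjusted p = 0.985, exact permutation p = 0.171) and passed the threshold, at 0.43, without p16 WT RUN replicate 12. Averaged over both genotypes Tek rose with running by 0.47 (standard error 0.17, limma p = 0.0153, adjusted p = 0.183, exact permutation p = 0.0224), and it was called in each of the 16 fits without 1 library. Without the 3 libraries that stood apart the value was 0.22 (95% interval -0.10 to 0.54), which did not pass.

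Tie1 (chromosome 4, 118471191 to 118489849, minus strand) showed the same pattern, at 4.68, 5.01, 2.93 and 3.29 TPM in p16 KO RUN and at 3.53, 1.51, 1.33 and 4.00 TPM in p16 KO CTL. Again replicates 6 and 7 of p16 KO CTL were far below the other libraries of their group, and the rest overlapped. The Set A value of 0.66 (95% interval -0.15 to 1.47, limma p = 0.0981, adjusted p = 0.336, exact permutation p = 0.200) did not reach the threshold. It was 0.03 without these 2 libraries, 0.43 without replicate 7 alone, and passed at 0.91 without p16 KO CTL replicate 8. In p16 WT CTL it was at 3.82, 2.79, 3.37 and 3.94 TPM and in p16 WT RUN at 4.22, 3.99, 3.91 and 3.34 TPM, and running over both genotypes gave 0.40 (95% interval -0.03 to 0.83, limma adjusted p = 0.310). This value passed the unadjusted threshold in 3 of the 16 fits without 1 library (p16 KO CTL replicate 5 or 8 or p16 KO RUN replicate 15) and was 0.05 without the 3 libraries that stood apart.

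Flt1 (chromosome 5, 147562196 to 147725988, minus strand) was at 21.4, 18.1, 16.0 and 14.3 TPM in p16 KO RUN and at 20.3, 9.53, 9.07 and 17.6 TPM in p16 KO CTL. Kdr (chromosome 5, 75933270 to 75978428, minus strand) was at 9.15, 10.0, 6.89 and 8.41 TPM in p16 KO RUN and at 8.24, 5.34, 4.04 and 7.42 TPM in p16 KO CTL. In both genes replicates 6 and 7 were the low ones and the groups overlapped. The Set A values were 0.31 for Flt1 (95% interval -0.25 to 0.87, limma adjusted p = 0.497, exact permutation p = 0.314) and 0.43 for Kdr (95% interval -0.04 to 0.90, limma adjusted p = 0.298, exact permutation p = 0.143). With 1 library left out, Kdr ranged from 0.26 (without p16 KO CTL replicate 7) to 0.55 and passed the unadjusted threshold without p16 KO CTL replicate 5 or 8 or p16 KO RUN replicate 15, and Flt1, which did not pass, was lowest at 0.15 without p16 KO CTL replicate 7 and highest at 0.49 without replicate 5 of that group. Without replicates 6 and 7 together they were -0.15 for Flt1 and 0.11 for Kdr. In p16 WT CTL, replicate 2 was likewise the lowest, at 12.5 TPM for Flt1 against 14.6 to 19.8 TPM in the other 3 libraries, and at 4.72 TPM for Kdr against 7.09 to 8.09 TPM. All 13 other libraries lay above these 3 in Flt1, Kdr and Tie1, and 12 of 13 in Tek, whereas 7 of 13 did in Angpt2, Vegfa and Nrp1.

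Of the 19 endothelial markers, 7 rose in Set A at the unadjusted threshold and none fell, beside 10.7% of all genes higher and 7.74% lower. Among them was Vwf, the von Willebrand factor, at 7.11 ± 2.07 against 3.39 ± 0.745 TPM (SD, n = 4; log2 fold change 0.97, limma adjusted p = 0.145). Adgrl4, an endothelial adhesion receptor, rose by 0.62 (adjusted p = 0.218), and Mfsd2a, a lipid transporter of the blood-brain barrier, by 0.35 (adjusted p = 0.231). With the 3 libraries that stood apart left out, Vwf (0.76) and Mfsd2a (0.47) still rose, whereas Adgrl4 was at 0.22 and did not pass. Cldn5, the tight junction claudin of brain endothelium, was at 40.9 ± 10.4 against 27.8 ± 10.8 TPM (0.54, adjusted p = 0.304) and did not pass. Their median log2 fold change was 0.47, beside 0.02 over all genes tested, and without the 3 libraries that stood apart it was 0.10, with 2 of 19 higher, beside 4.90% of all genes. In Set C 1 of 19 was called, near the 4.81% of all genes called there, and the median was 0.14. For running over both genotypes 8 of 19 rose, beside 9.87% of all genes, with a median of 0.30. Without the 3 libraries 2 of 19 rose for running, beside 5.27% of all genes, with a median of 0.05. The part of the endothelial content in the receptor values was not tested.

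Nrp1 (chromosome 8, 128359073 to 128505475, plus strand) was at 111, 87.1, 105 and 85.5 TPM in p16 KO RUN and at 84.1, 73.3, 72.4 and 89.9 TPM in p16 KO CTL. It was at 94.3, 95.7, 92.5 and 98.3 TPM in p16 WT RUN and at 86.8, 90.7, 78.9 and 97.4 TPM in p16 WT CTL. The highest library of each genotype was a running one, but the running and sedentary groups overlapped in both. Set A gave 0.21 (95% interval -0.01 to 0.43, limma p = 0.0546, adjusted p = 0.278, exact permutation p = 0.114), and it passed the unadjusted threshold in 3 of 8 fits without 1 library (p16 KO CTL replicate 8 or p16 KO RUN replicate 14 or 16). Averaged over both genotypes Nrp1 rose with running by 0.15 (standard error 0.06, limma p = 0.0264, adjusted p = 0.221, exact permutation p = 0.0380). The call was lost in 5 of 16 fits without 1 library, namely p16 WT CTL replicate 3 (0.12), p16 KO CTL replicate 6 or 7 (both 0.14) and p16 KO RUN replicate 13 (0.12) or 15 (0.13), and without the 3 libraries that stood apart (0.13).

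Counted together, 3 of the 10 members were called in Set A, with Angpt2 and Tek higher and Vegfb lower, where 18.5% of all genes were called (10.7% higher and 7.74% lower). For running over both genotypes 4 of 10 were called, with Nrp1 added to the higher ones, beside 17.9% of all genes (9.87% higher and 8.02% lower). The split over all genes depended on the scaling of the libraries: in Set A 1856 genes were higher and 1340 lower, against 2500 and 709 with TPM as deposited and 1538 and 1541 with quantile normalization. For running it was 1709 and 1388, against 2257 and 835 with TPM as deposited and 1404 and 1609 with quantile normalization. The directions of the 4 called members were the same under each of these scalings. No member had an adjusted p under 0.05 in Set A, where 3 genes (0.0173%) did. In Set D Angpt2 was the 1 member called (8.63% of all genes, 4.97% higher), and in Set C, in Set E and for the interaction no member was called by limma at the unadjusted threshold (4.81%, 3.87% and 5.48% of all genes). No second tool was run on these comparisons, since the values are not counts.

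In sedentary mice, the knockout was compared with the wild type in Set B. Angpt2 gave -0.48 (95% interval -1.24 to 0.29, adjusted p = 0.631), Vegfb 0.22 (95% interval -0.03 to 0.47, adjusted p = 0.625), Tek -0.31 (95% interval -0.92 to 0.29, adjusted p = 0.662) and Tie1 -0.50 (95% interval -1.25 to 0.26, adjusted p = 0.630), all from limma and none past the unadjusted threshold. With 1 library left out, Angpt2 lay between -0.68 (p16 KO CTL replicate 7 left out) and -0.24 (replicate 8), Tek from -0.49 (replicate 8) to -0.15 (replicate 7) and Tie1 from -0.75 (replicate 8) to -0.26 (replicate 7). Tie1 passed the unadjusted threshold without p16 KO CTL replicate 8, and Vegfb without p16 WT CTL replicate 2 (0.31) or p16 KO CTL replicate 5 (0.27), and Vegfb was at 0.14 without p16 KO CTL replicate 7. Angpt1, Kdr, Flt1 and Nrp1 lay between -0.17 (Flt1) and 0.14 (Angpt1). Without the 3 libraries that stood apart 5 members changed sign, namely Flt1 (0.22), Tek (0.17), Kdr (0.10), Tie1 (0.06) and Nrp1 (0.03), and Vegfb passed the unadjusted threshold at 0.20. Tek is 5.44 Mb and Tie1 29.2 Mb from Cdkn2a on chromosome 4, so that in comparisons between genotypes the deletion and sequence carried along with the allele from FVB cannot be told apart. Between the running groups, Set E, the 9 members besides Angpt2 lay between -0.20 (Vegfc) and 0.28 (Kdr), and none passed.

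Of 12 other ligands and receptors of the system listed (placental growth factor Pgf, Figf, Flt4, Nrp2, the Tie2 phosphatase Ptprb, integrins and others), 10 were tested. In Set A 2 rose, beside 10.7% of all genes, and none fell. Nrp2, the co-receptor for VEGF-C and semaphorins, was at 83.9 ± 1.75 TPM in p16 KO RUN and 66.9 ± 8.40 TPM in p16 KO CTL (SD, n = 4; 0.27, limma adjusted p = 0.158). Flt4, the receptor of VEGF-C, was at 1.59 ± 0.252 against 0.986 ± 0.364 TPM (0.64, adjusted p = 0.267). Integrin beta 3 (Itgb3), which can associate with VEGFR2, did not pass in Set A (-0.40, limma adjusted p = 0.288). For running over both genotypes 2 of the 10 rose and 1 fell, beside 9.87% and 8.02% of all genes. The 1 that fell was Itgb3, by 0.43 (limma adjusted p = 0.0868). The median of the 10 was -0.04 in Set A, beside 0.02 for all genes. Without the 3 libraries that stood apart it was -0.09, and Nrp2 was the 1 gene of the 10 that rose (0.23), beside 4.90% of all genes, while Flt4 (0.31) did not pass.

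Of 23 genes of signal transduction below VEGFR2 and Tie2, 3 rose and 2 fell in Set A, beside 10.7% and 7.74% of all genes. Plcg1, the phospholipase activated by VEGFR2, was at 44.3 ± 0.872 against 34.0 ± 5.90 TPM (SD, n = 4; 0.33, limma adjusted p = 0.185). Akt1, a survival kinase downstream of Tie2, was lower, at 157 ± 5.28 against 177 ± 12.0 TPM, and fell by 0.23 (limma adjusted p = 0.192). Both values were smaller with the 3 libraries that stood apart left out, at 0.17 for Plcg1 and -0.13 for Akt1. Both genes are expressed well beyond vessels. The median of the list was -0.03, and without the 3 libraries that stood apart 2 rose and 1 fell, beside 4.90% and 3.59% of all genes.

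Of 24 tip cell and sprouting genes, 4 rose, beside 10.7% of all genes, and none fell in Set A. Aplnr, the apelin receptor, was at 0.382 ± 0.193 against 0.0498 ± 0.0342 TPM (SD, n = 4; 1.60, limma adjusted p = 0.158), a level near the lower limit of the tables. The basement membrane collagens Col4a1 and Col4a2 rose by 0.90 (adjusted p = 0.211) and 0.81 (adjusted p = 0.198), from 12.6 ± 6.32 to 22.3 ± 1.81 TPM and from 17.0 ± 7.57 to 29.2 ± 1.82 TPM. Leaving out the 3 libraries that stood apart brought them to 0.30, which did not pass, and to 0.32, while Aplnr was at 1.73. Dll4, the Notch ligand of tip cells, gave 0.39 (adjusted p = 0.563), and the ligand Apln gave -0.25 (adjusted p = 0.580). The median of the list was 0.06 in Set A and 0.10 in Set C, and without the 3 libraries that stood apart 2 of 24 rose in Set A, beside 4.90% of all genes.

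The genes most alike to a member across the 16 libraries were searched among the 14438 genes whose mean reached 1 TPM, as a description over libraries that share groups and depth. For Angpt2 the 5 highest Pearson r were 0.911 (Dsel, an enzyme of dermatan sulfate), 0.871 (Klhl40), 0.869 (Dbh, which makes noradrenaline), 0.868 (Acvr1c, an activin type receptor) and 0.861 (Trib2, a pseudokinase). Acvr1c was at 28.9 TPM in p16 WT RUN and 16.0 TPM in p16 WT CTL, and at 31.4 TPM in p16 KO RUN and 15.4 TPM in p16 KO CTL. Trib2 was at 22.4 and 23.1 TPM in the sedentary and at 43.2 and 47.1 TPM in the running groups. Since these genes were picked by their likeness to Angpt2, which is itself higher with running, their levels are a description. For Kdr the highest were Igsf10 (0.889), Mrgbp (0.853) and the taurine transporter Slc6a6 (0.849), and for Vegfa Oip5 (0.831), 1700096K18Rik (0.772) and Ehhadh (0.768), a peroxisomal enzyme.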

How the data were processed

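RNA sequencing of 16 dentate gyrus libraries, 4 per group, was analysed from the deposited abundance tables. Per the labels and the study's methods, the authors made libraries with the Universal Plus mRNA-Seq kit, sequenced them in paired-end mode on a NovaSeq, processed reads with bcl2fastq 2.20, cutadapt 1.11 and ERNE, aligned them to mm10 with STAR and estimated abundances with StringTie (versions of the last 2 not given in the sources used here). The deposited values are TPM per gene, with FPKM and coverage per base beside them, also deposited by the authors. Counts per gene were not used here, so the count test of the study was replaced by limma.

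Entries with the same gene name (147 to 170 per library) were summed. TPM were scaled by the median ratio to the mean library over 13226 genes at 1 TPM or more in all libraries (factors 0.920 to 1.03). limma 3.58.1 (R 4.3.3) with a variance trend was fitted on log2(scaled TPM + 0.1) over 17317 genes whose mean reached 0.1 TPM, two-sided, on the 8 libraries of each set or all 16 for the interaction and the averaged effects. Fold changes on this scale understate those of low genes. Exact permutation tests were two-sided, over 35 splits for 4 against 4 libraries and over 4900 within genotype or treatment. The fit was tested on simulated data, with no result of that test reported here. Tables were handled with Python 3.11.15, pandas 2.3.3 and numpy 2.4.6, and figures drawn with matplotlib 3.10.9.

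The p-values measure the spread between pooled libraries. The 10 members and the gene lists were chosen with earlier results of these data known. Named were all members, the genes most alike to Angpt2, Vegfa and Kdr, and, chosen after their values were seen, Dll4, Apln, Hif1a and Epas1. Names from the other lists were taken from the 3 genes of smallest p in Set A. For endothelial markers, mural markers and nuclear RNAs they were also taken from the 3 most abundant. Not every gene so taken was named, and no glial marker was. A gene of the signal transduction list is not reported here. Alternatives were other filters, pseudocounts, scalings, FPKM, variance models, the highest entry per name, each library left out and, added after seeing the data, the 3 libraries that stood apart left out together. Library replicates correlated across genes with r of 0.972 to 0.985.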

Additional observations from a re-analysis of the deposited data

Results flagged for a closer look

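In 44 groups of 4 libraries (10 genes and the angiopoietin ratio, 4 groups each), a single library far from the other 3 was looked for by the gap to its neighbour over the range of the group; chance gives about 1 in 20. Vegfc was at 4.80 TPM in p16 KO RUN replicate 13, against 2.99 to 3.14 TPM in the other 3 libraries of that group. Angpt1 was at 2.06 TPM in p16 WT RUN replicate 12, against 3.24 to 3.48 TPM in the other 3, and the same library held the highest Angpt2 level of its group, 1.57 TPM. Without p16 KO RUN replicate 13 the Vegfc value in Set A was 0.17 on the log2 scale, against 0.32 with all libraries.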

How the results depend on the processing

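No paired analysis was possible because the replicate numbers 1 to 16 are not shared between groups. Of the member values followed through all alternatives (the main ones of the text, not every member in every comparison), 284 outside the leave-one-out fits kept their direction and their side of the unadjusted p of 0.05, 8 lost the call, 8 gained it and 3 changed sign, all 3 without the 3 libraries that stood apart: Flt1 in Set A (-0.15), Tek in Set B (0.17) and Tie1 in Set B (0.059). Over all 10 members and the 7 comparisons that hold any of these libraries, 21 of 70 values changed sign without the 3, among them 5 in Set B, 4 for the interaction (Tek -0.11, Tie1 -0.04, Flt1 -0.24, Nrp1 -0.0027), 6 for genotype and 2 for running (Flt1 -0.03, Angpt1 0.01). The cause was not tested.

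The number of members called was 5 in Set A and 2 in Set B with all 16 libraries in one fit (20.4% and 12.7% of all genes), 0 in Set D with a filter at 1 TPM (which leaves out Angpt2, at a mean of 0.961 TPM), and 1 for the interaction with TPM as deposited (5.28%). Without the 3 libraries that stood apart, 1 member was higher and 1 lower in Set A (8.49% of all genes called), against 3 called with all libraries. The number without them was 1 in Set C (5.88%) and 2 for running (9.29%). The angiopoietin ratio then gave 2.03 in Set A (exact permutation p = 0.0667, the smallest possible with 2 against 4 libraries) and 1.32 in Set D (exact permutation p = 0.0571). With 1 library left out, the members called ranged from 2 to 6 in Set A (11.7% to 27.4% of all genes), 0 to 2 in Set B (3.22% to 17.5%), 0 to 1 in Set C (3.07% to 5.88%), 1 to 3 in Set D (6.53% to 11.2%), 0 to 1 in Set E (2.81% to 6.05%), 0 to 1 for the interaction (3.57% to 13.7%), 3 to 7 for running (13.1% to 24.1%) and 0 to 2 for genotype (4.16% to 15.7%). The Vegfa value in Set A ranged from -0.061 to 0.21, and the log2 ratio of Angpt2 to Angpt1 from 1.64 to 2.16 in Set A from 1.08 to 1.55 in Set D, from -0.77 to -0.35 in Set B, from 0.34 to 0.91 in Set C and from 0.38 to 0.95 in Set E. The Angpt2 interaction passed the unadjusted threshold in 5 of 16 such fits, with values of 0.74 to 1.20.

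Depth is known only as coverage per base, without counts. With 4 pooled libraries per group, an exact test in a pairwise set cannot go below 0.0286. For the averaged effects, with splits within genotype or treatment, the limit is 0.000408. The adjusted p of the members in the pairwise sets were all above 0.05.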

Other observations

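Mural cells, which wrap the vessels and are a known source of angiopoietin-1, were followed by 16 pericyte and smooth muscle markers. In Set A 1 of them rose, beside 10.7% of all genes, namely Tagln, a smooth muscle actin-binding protein, at 4.79 ± 1.83 TPM in p16 KO RUN and 2.52 ± 0.863 TPM in p16 KO CTL (SD, n = 4; log2 fold change 0.83, limma adjusted p = 0.255). The pericyte genes Pdgfrb (0.12), Vtn (0.14) and Rgs5 (0.11) did not reach the threshold. The median of the list was 0.29 in Set A with all libraries and 0.03 without the 3 sedentary libraries that stood apart. Without them Tagln did not pass (0.50), and 1 of the 16 fell, Rgs5 (-0.40, limma adjusted p = 0.575), beside 3.59% of all genes lower. For running over both genotypes 3 of the 16 rose, beside 9.87% of all genes. Without the 3 libraries none rose for running, beside 5.27% of all genes.

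Of 25 hypoxia response genes, none rose and 4 fell in Set A, beside 10.7% and 7.74% of all genes. Egln2, an oxygen-sensing prolyl hydroxylase, fell by 0.20 (96.2 ± 3.87 against 106 ± 2.10 TPM, SD, n = 4; limma adjusted p = 0.166), Bnip3, a mitophagy receptor, fell by 0.25 (adjusted p = 0.211) and its relative Bnip3l fell by 0.16 (adjusted p = 0.241). With the 3 libraries left out Egln2 still fell, by 0.14, whereas Bnip3 (-0.18) and Bnip3l (-0.08) did not pass. Hif1a gave -0.07 and Epas1 -0.10, and neither passed the unadjusted threshold. The median of the list was -0.05 in Set A and 0.02 in Set C, and without the 3 libraries 2 of 25 fell in Set A, beside 3.59% of all genes.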
